A study of Mus musculus with 23 samples.

Results

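Plasma cells and the genes of mucosal antibody secretion were followed in the lungs of CF-/- and CF+/+ mice of 2 inbred strains. The genes were Igha and Ighm (the constant regions of the IgA and IgM heavy chains), Jchain, Mzb1, Prdm1, Tnfrsf17, Sdc1 and Pigr. They and the marker lists below were chosen with earlier results of these data known. Their counts beside the share of all probe sets are therefore descriptions. Every probe set annotated with 1 symbol among these 8 was taken, which gave 24 probe sets. The whole table held 34945 probe sets with 1 symbol, for 18193 genes. Ighm had 11 probe sets, Sdc1 had 4, Igha had 3, Pigr had 2, and the other 4 genes had 1 each.

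Each of the 23 arrays measured biotin-labelled total RNA of a whole right lung. The groups were BALB/c (BALB) mice of genotype CF-/- (CF; 3 females and 3 males) and of genotype CF+/+ (control; 3 females and 3 males), and C57BL/6 (B6) mice of genotype CF-/- (3 females and 2 males) and of genotype CF+/+ (3 females and 3 males). The labels give no CF allele, age, diet or housing, and they do not say that each array is a different mouse. The p-values therefore reflect the spread between arrays, which may be technical. Values are taken to be log2 signals, so a difference of 1 is a doubling, and differences were tested with limma over 45037 probe sets with an adjusted p under 0.05 as the threshold.

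IgA is the main antibody of mucosal surfaces. B cells that become plasma cells switch to making large amounts of antibody, and the J chain, the product of Jchain, joins IgA into dimers and IgM into pentamers. The polymeric immunoglobulin receptor, the product of Pigr, binds J-chain-containing antibody at the base of epithelial cells, carries it through the cell and releases it into the airway with a cleaved piece of the receptor attached. Mzb1 helps to fold and assemble antibody in the endoplasmic reticulum, Prdm1 (Blimp-1) is the transcription factor that drives plasma cell differentiation, Tnfrsf17 (BCMA) is a survival receptor of plasma cells, and Sdc1 (syndecan-1, CD138) marks plasma cells but is also abundant on epithelia.

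The promoters of Jchain and Pigr are shown because these genes stand at the 2 ends of the route, the joining piece made in the plasma cell and the receptor made in the epithelium. Each stretch is the 250 bases before the gene's start in the RefSeq table of GRCm38.p6, written 5′ to 3′ on the gene's strand, with a matched motif in capitals. Jchain lies at chr5:88527898-88528147 on the minus strand, and Pigr at chr1:130826434-130826683 on the plus strand.
Jchain: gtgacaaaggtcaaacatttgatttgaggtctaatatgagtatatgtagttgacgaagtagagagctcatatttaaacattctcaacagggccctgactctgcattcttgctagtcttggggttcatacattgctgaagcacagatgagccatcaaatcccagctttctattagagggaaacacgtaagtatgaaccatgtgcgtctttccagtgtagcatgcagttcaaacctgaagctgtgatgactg
Pigr: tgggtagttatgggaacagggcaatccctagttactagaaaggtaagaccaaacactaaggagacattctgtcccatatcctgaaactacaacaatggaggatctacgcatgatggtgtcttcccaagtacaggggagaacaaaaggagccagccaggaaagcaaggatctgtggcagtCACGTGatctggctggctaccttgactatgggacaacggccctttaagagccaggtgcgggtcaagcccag
The capitals in Pigr mark CACGTG, the E-box that USF proteins are known to bind, 71 bases before the start. Searched on both strands of the same window, CACGTG was found in 6.02% of 32851 promoters. The octamer ATGCAAAT (1.6% of promoters), the interferon element (2.98%), the PU.1 box GAGGAAGT (2.44%) and ACGTGG of the unfolded protein response (6.91%) were not found in either stretch. ACGTGG and CACGTG overlap in the letters ACGTG. A match is a description of these letters only. The GC content was 42% for Jchain and 50.4% for Pigr, against a median of 52.4% over all the promoters. Of the 8 genes, 5 had a promoter in the table.

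On the whole series, array medians lay between 4.56 and 4.64 and pairs of arrays correlated at 0.971 to 0.996. Cftr, the targeted gene, fell by 1.67 in BALB CF lungs (SE 0.13, limma adjusted p = 6.44e-07) and differed by -0.22 in B6 (SE 0.13, adjusted p = 0.43). It thus checked the BALB genotypes but could not check those of B6. Several arrays carried markers of other tissues, summarised as the mean log2 signal of a marker list. Intestinal epithelium markers (23 measured) lay at 4.55 to 5.66 on BALB CF arrays, at 5.09 to 6.64 on BALB control arrays, at 4.59 to 4.66 on B6 CF arrays and at 4.53 to 6.20 on B6 control arrays, where female 1 was the highest and the other 5 were at 4.68 or below. Squamous epithelium markers (15 measured) reached 6.42 to 8.39 on the 3 BALB CF female arrays, 8.37 on B6 control male 3 and 5.74 on B6 control female 1, and 4.70 or less on the other 18. Thymocyte markers (8 measured) reached 5.08 on BALB control male 3 and 4.24 or less elsewhere.

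Igha, Jchain and Mzb1 were higher in CF lungs of both strains. Of the 11 Ighm probe sets only 1452535_at passed in both, and its B6 call depended on single arrays and on the fit, as given below. Prdm1 and Tnfrsf17 passed in BALB alone, with Prdm1 differing between the strains in a test of its own. In BALB, 12 of the 24 probe sets passed as higher in CF and 0 as lower, from 6 of the 8 genes, where 4.92% of all probe sets passed in either direction. In B6, 8 passed as higher and 0 as lower, from 4 genes, where 4.71% of all passed. On those 12 BALB probe sets no CF array lay below a control array, a separation seen in 1.91% of all probe sets, although for Tnfrsf17 the groups met at 3.70. In B6 only 1 of the 24 separated so, against 2.41% of all. In whole lung, more cells of a type and more RNA per cell cannot be told apart.

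**Figure D1:**
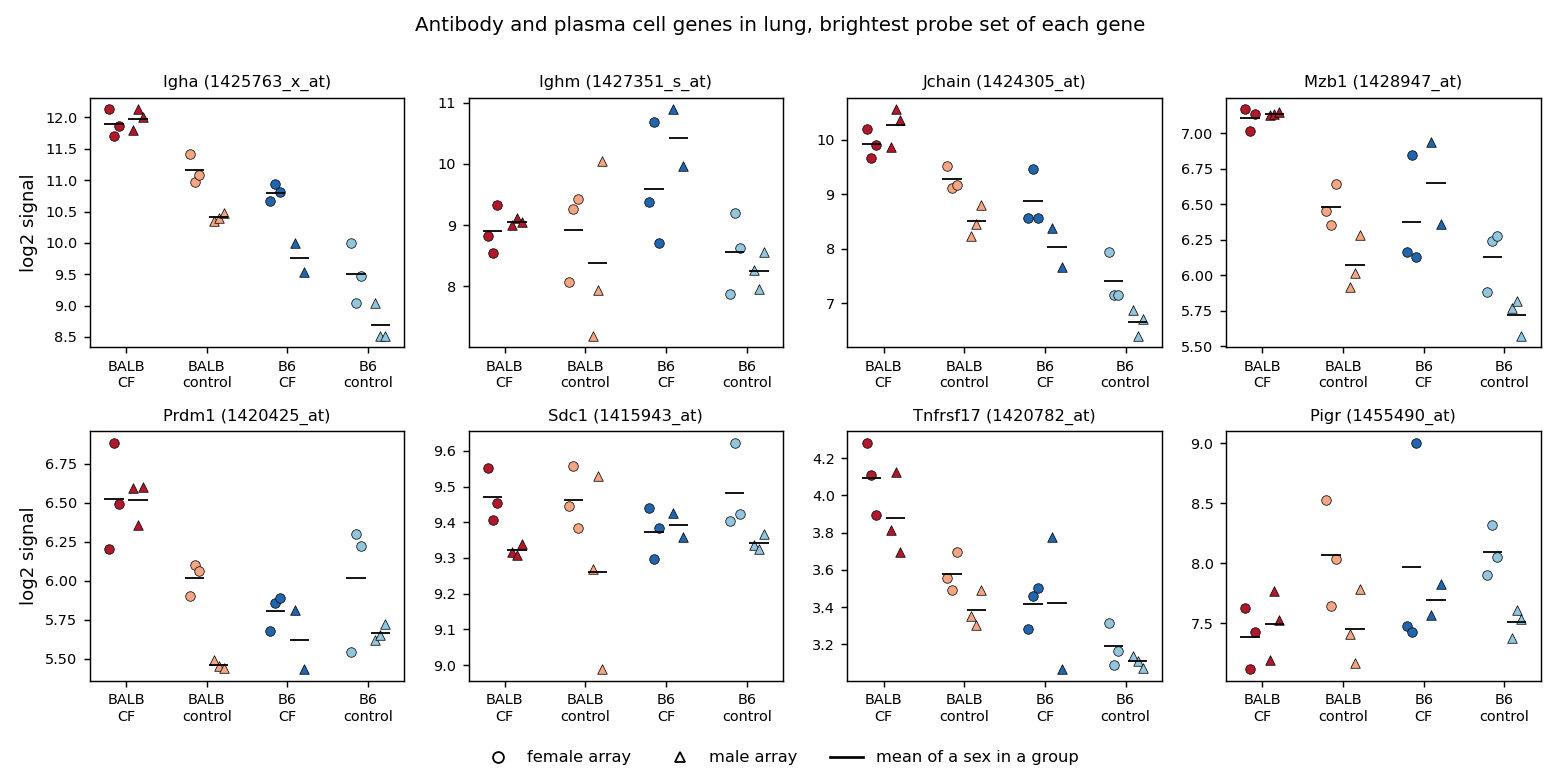
Log2 signal (vertical axis, a scale of its own in each panel) of the brightest probe set of each of the 8 genes on every array, by strain and genotype; circles are female arrays, triangles male arrays and bars the mean of a sex in a group. Igha and Jchain stepped down across BALB CF, BALB control, B6 CF and B6 control, while Sdc1 and Pigr had overlapping groups.

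The brightest of the 3 Igha probe sets, 1425763_x_at, read 11.71 to 12.13 on the BALB CF arrays (median 11.93), against 10.35 to 11.41 on the BALB control arrays (median 10.73). No BALB CF array overlapped the controls. It read 10.66, 10.93 and 10.81 on B6 CF female arrays and 9.99 and 9.53 on B6 CF male arrays, against 8.52 to 10.001 on the B6 control arrays (median 9.04). The B6 genotypes overlapped when the sexes were pooled, where both CF males read below control female 1, but within each sex all CF arrays were above all control arrays.

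The CF effect on Igha was 1.16 in BALB (SE 0.14, a 2.23-fold difference, n = 6 and 6, limma adjusted p = 4.91e-05) and 1.18 in B6 (SE 0.14, 2.27-fold, n = 5 and 6, adjusted p = 6.56e-05). The other probe sets gave 1.14 and 1.32 in BALB (adjusted p = 3.09e-05 and 2.93e-05) and 1.20 and 1.17 in B6 (adjusted p = 2.78e-05 and 1.32e-04). The Igha sets are not independent readings, as their deviations from group means correlated at r = 0.98 to 0.99. The strain difference of the effect was -0.03 (95% interval -0.44 to 0.39, adjusted p = 0.973). A difference between strains was not shown. The Igha calls of both strains held in every alternative fit and without any 1 array. Nothing is concluded from the fit with the intestinal marker level as a covariate, for the reason given below.

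Igha also differed between the strains and between the sexes. BALB controls exceeded B6 controls by 1.68 (SE 0.14, 3.21-fold, n = 6 and 6, limma adjusted p = 5.41e-09), and BALB CF lungs exceeded B6 CF lungs by 1.66 (SE 0.14, adjusted p = 1.81e-08). Female controls exceeded male controls by 0.78 (SE 0.14, n = 6 and 6, adjusted p = 0.00324). Ordered by their means, the 8 groups ran from BALB CF males (11.98 ± 0.16) and BALB CF females (11.90 ± 0.21) through BALB control females (11.15 ± 0.23), B6 CF females (10.80 ± 0.14), BALB control males (10.41 ± 0.07), B6 CF males (9.76 ± 0.33, n = 2) and B6 control females (9.50 ± 0.48) to B6 control males (8.69 ± 0.30; SD, n = 3 except where given). Neighbours in that order whose arrays overlapped were the BALB CF sexes, B6 CF males with B6 control females, and B6 control females with B6 control males.

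Ighm did not give 1 answer, because its 11 probe sets fell into different patterns. The source of each probe set's sequence, and which part of the IgM transcript it covers, is not given in the sources used here. In this array family an ending of _x_at or _s_at marks probe sets whose probes match more than 1 transcript, and antibody transcripts resemble each other. The Igha sets 1425763_x_at and 1429381_x_at carry such an ending too.

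The brightest pair, 1427351_s_at and 1427329_a_at, varied widely between arrays of a group and moved together (r = 0.98 between their deviations from group means over 23 arrays). The first read 8.54 to 9.33 on BALB CF arrays (median 9.03), against 7.19 to 10.04 on BALB control arrays (median 8.67). It read 9.37, 10.68 and 8.71 on B6 CF female arrays and 10.89 and 9.96 on B6 CF male arrays, against 7.87 to 9.20 on B6 control arrays (median 8.41). Both strains overlapped between genotypes. The CF effect was 0.32 in BALB (SE 0.39, limma adjusted p = 0.75) and 1.60 in B6 (SE 0.41, adjusted p = 0.0281). The second probe set gave 0.68 in BALB (adjusted p = 0.232) and 1.05 in B6 (adjusted p = 0.0677). The first call in B6 was lost without any 1 of 6 B6 arrays (CF female 2 and male 1, control females 1 and 3 and males 1 and 2; adjusted p = 0.0536 to 0.174) and under a trended robust prior (adjusted p = 0.0724). Without BALB control male 3, the highest BALB control, the second probe set passed in BALB (1.0, adjusted p = 0.0252) and in B6 (1.05, adjusted p = 0.0194), and in B6 it also passed without BALB control male 1 (adjusted p = 0.0336) or B6 CF female 3 (adjusted p = 0.0471). With no array left out, it passed in B6 when only B6 arrays entered the fit (1.05, adjusted p = 0.0386). With array weights it passed in B6 (1.05, adjusted p = 0.0417) and in BALB (0.94, adjusted p = 0.0472).

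A set of 4 others (1425247_a_at, 1425324_x_at, 1427756_x_at and 1427870_x_at) was high on the BALB CF arrays. The first of them read 6.44, 6.40 and 6.48 on BALB CF female arrays and 6.05, 8.73 and 8.09 on BALB CF male arrays, against 4.71 to 5.34 on BALB control arrays (median 4.81). It read 7.07 on B6 CF female 2 and 4.0 to 4.55 on the other 4 B6 CF arrays, against 4.01 to 4.54 on B6 control arrays (median 4.26). All 6 BALB CF arrays were high, and of the B6 arrays only CF female 2 was. The BALB CF effects of the 4 were 2.14, 2.20, 1.60 and 1.61 (SE 0.28 to 0.40, limma adjusted p = 0.00166 to 0.003), and the B6 effects 0.56, 0.50, 0.32 and 0.22 (adjusted p = 0.563 to 0.788). None of the 4 differed between strains past the threshold (1.28 to 1.70, adjusted p = 0.0737 to 0.166). Without B6 CF female 2 all 4 did (1.59 to 2.13, adjusted p = 0.0107 to 0.0187), and likewise without BALB CF male 1 (1.60 to 2.13, adjusted p = 0.00587 to 0.0395).

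Probe set 1425385_a_at behaved the other way round. It read 5.31, 8.04 and 4.65 on B6 CF female arrays and 6.82 and 4.93 on B6 CF male arrays, against 3.99 to 4.31 on B6 control arrays (median 4.20). It read 3.40 to 4.04 on BALB CF arrays (median 3.75), against 3.54 to 4.02 on BALB control arrays (median 3.67). Every B6 CF array was above every B6 control array, and the BALB genotypes overlapped. The effect was 1.76 in B6 (SE 0.39, 3.38-fold, limma adjusted p = 0.0117) and -0.01 in BALB (SE 0.37, adjusted p = 0.994), and their difference of -1.77 did not pass (SE 0.54, adjusted p = 0.0892). It passed without B6 CF female 2, female 3 or male 2 (-2.24 to -1.26, adjusted p = 0.026 to 0.0329). The B6 call was lost without CF male 1 (1.28, adjusted p = 0.136) and when only B6 arrays entered the fit (adjusted p = 0.061).

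The remaining set above the median probe set, 1452535_at, passed as higher in CF in both strains, with overlapping genotypes in B6. It read 6.07 to 6.72 on BALB CF arrays (median 6.18), against 4.51 to 5.06 on BALB control arrays (median 4.83). The lowest BALB CF array was 1.01 above the highest BALB control array. It read 4.45, 5.52 and 4.76 on B6 CF female arrays and 4.76 and 4.36 on B6 CF male arrays, against 3.81 to 4.68 on B6 control arrays (median 4.12). The effect was 1.44 in BALB (SE 0.14, 2.71-fold, limma adjusted p = 1.03e-05) and 0.55 in B6 (SE 0.15, adjusted p = 0.0366). The B6 call was lost without CF female 2, CF male 1 or any 1 of the 5 control arrays other than female 1 (adjusted p = 0.0591 to 0.221). It was also lost when only B6 arrays entered the fit (adjusted p = 0.0703) and with the squamous marker level as a covariate (adjusted p = 0.0654). The 3 dimmest sets (1427869_at, 1451949_at and 1426196_at), all below the median probe set, showed effects of 0.01 to 0.08 in BALB and -0.02 to 0.10 in B6 that did not pass.

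Of the assembly genes, Jchain followed Igha. It read 9.67 to 10.56 on BALB CF arrays (median 10.05), against 8.24 to 9.52 on BALB control arrays (median 8.96). It read 8.57, 9.46 and 8.57 on B6 CF female arrays and 8.39 and 7.67 on B6 CF male arrays, against 6.40 to 7.94 on B6 control arrays (median 7.02). The BALB genotypes did not overlap, and in B6 the CF arrays were above the controls within each sex. The CF effect was 1.21 in BALB (SE 0.18, 2.31-fold, limma adjusted p = 5.26e-04) and 1.41 in B6 (SE 0.19, 2.65-fold, adjusted p = 1.74e-04), with a strain difference of -0.20 (95% interval -0.75 to 0.35, adjusted p = 0.795). BALB exceeded B6 by 1.84 in controls (SE 0.18, adjusted p = 1.21e-07) and by 1.64 in CF lungs (SE 0.19, adjusted p = 1.57e-06). By mean level, Jchain put the 8 groups in the same order as Igha, from 10.27 ± 0.35 in BALB CF males to 6.67 ± 0.25 in B6 control males (SD, n = 3 each). The deviations of both genes from their group means correlated at r = 0.80 over the 23 arrays, which share the RNA of each lung. Not all members moved so. Prdm1 correlated at -0.62 to -0.58 with the Igha probe sets and at -0.42 with Jchain. Mzb1 correlated with them at 0.09 to 0.15 and 0.45, and Tnfrsf17 at 0.50 to 0.57 and 0.56.

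Mzb1 read 7.02 to 7.17 on BALB CF arrays (median 7.13), against 5.92 to 6.64 on BALB control arrays (median 6.32). It read 6.16, 6.84 and 6.13 on B6 CF female arrays and 6.94 and 6.36 on B6 CF male arrays, against 5.57 to 6.28 on B6 control arrays (median 5.85). The BALB CF arrays were tightly grouped and separate from their controls, whereas the B6 genotypes overlapped. The effect was 0.84 in BALB (SE 0.12, limma adjusted p = 2.11e-04) and 0.59 in B6 (SE 0.12, adjusted p = 0.00722), and the B6 call was lost without CF male 1 (0.44, adjusted p = 0.095).

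Prdm1 was the gene whose CF effect differed most clearly between the strains. It read 6.20 to 6.89 on BALB CF arrays (median 6.54), against 5.44 to 6.10 on BALB control arrays (median 5.69), with no overlap. It read 5.68, 5.85 and 5.89 on B6 CF female arrays and 5.81 and 5.43 on B6 CF male arrays, against 5.54 to 6.30 on B6 control arrays (median 5.69), which overlapped. The effect was 0.78 in BALB (SE 0.12, 1.72-fold, limma adjusted p = 4.60e-04) and -0.13 in B6 (SE 0.12, adjusted p = 0.674). The strain difference was 0.91 (SE 0.17, adjusted p = 0.00576), and it passed in each alternative fit and without any 1 array (adjusted p up to 0.0399). Nothing is concluded from the fit with the intestinal marker level as a covariate, for the reason given below. Only 1 other of the 24 probe sets differed between strains, 1452535_at of Ighm (0.89, SE 0.21, adjusted p = 0.0244), where 2.54% of all probe sets did. That second call was lost without B6 CF male 2 (0.79, adjusted p = 0.0634), with the squamous marker level as a covariate (0.87, adjusted p = 0.128) and without 4 arrays high in stray tissue markers (0.73, adjusted p = 0.0648). Leaving out these 4 did not level the intestinal markers, as every BALB control array read 5.09 or more. Whether that signal came from stray tissue was not tested.

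The surface genes split. Tnfrsf17 was dim, below the median probe set. It read 3.70 to 4.28 on BALB CF arrays (median 4.0), against 3.30 to 3.70 on BALB control arrays (median 3.49), and it read 3.28, 3.46 and 3.50 on B6 CF female arrays and 3.78 and 3.06 on B6 CF male arrays, against 3.07 to 3.32 on B6 control arrays (median 3.13). The effect was 0.51 in BALB (SE 0.10, limma adjusted p = 0.0046) and 0.27 in B6 (SE 0.11, adjusted p = 0.171), where it passed without CF male 2 (0.45, adjusted p = 0.0111). A strain difference was not shown (0.24, 95% interval -0.06 to 0.54, adjusted p = 0.466).

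Sdc1 was bright, and its brightest set read 9.31 to 9.55 on BALB CF arrays (median 9.37), against 8.99 to 9.56 on BALB control arrays (median 9.41), and 9.44, 9.30, 9.38, 9.42 and 9.36 on the 5 B6 CF arrays, against 9.33 to 9.62 on B6 control arrays (median 9.39). The genotypes overlapped in both strains. Over its 4 probe sets the CF effects were -0.13 to 0.09 in BALB and -0.12 to 0.06 in B6, none passing, and the intervals reached no further than -0.34 and 0.29.

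Pigr did not pass in either strain. Its brighter set (1455490_at) read 7.12 to 7.77 on BALB CF arrays (median 7.48), against 7.17 to 8.53 on BALB control arrays (median 7.71). It read 7.48, 7.43 and 9.01 on B6 CF female arrays and 7.57 and 7.83 on B6 CF male arrays, against 7.38 to 8.32 on B6 control arrays (median 7.76). The genotypes overlapped in both strains, and B6 CF female 3 stood above all other arrays. The CF effect was -0.32 in BALB (95% interval -0.76 to 0.12, limma adjusted p = 0.466) and 0.03 in B6 (-0.43 to 0.50, adjusted p = 0.966), and the other set gave -0.21 and -0.02. In each strain the upper bound of the Pigr interval, at most 0.50, was below the lower bound for Igha (0.845 or more over its 3 probe sets) and for Jchain (0.83 or more). The difference between these genes was not tested.

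**Figure D2:**
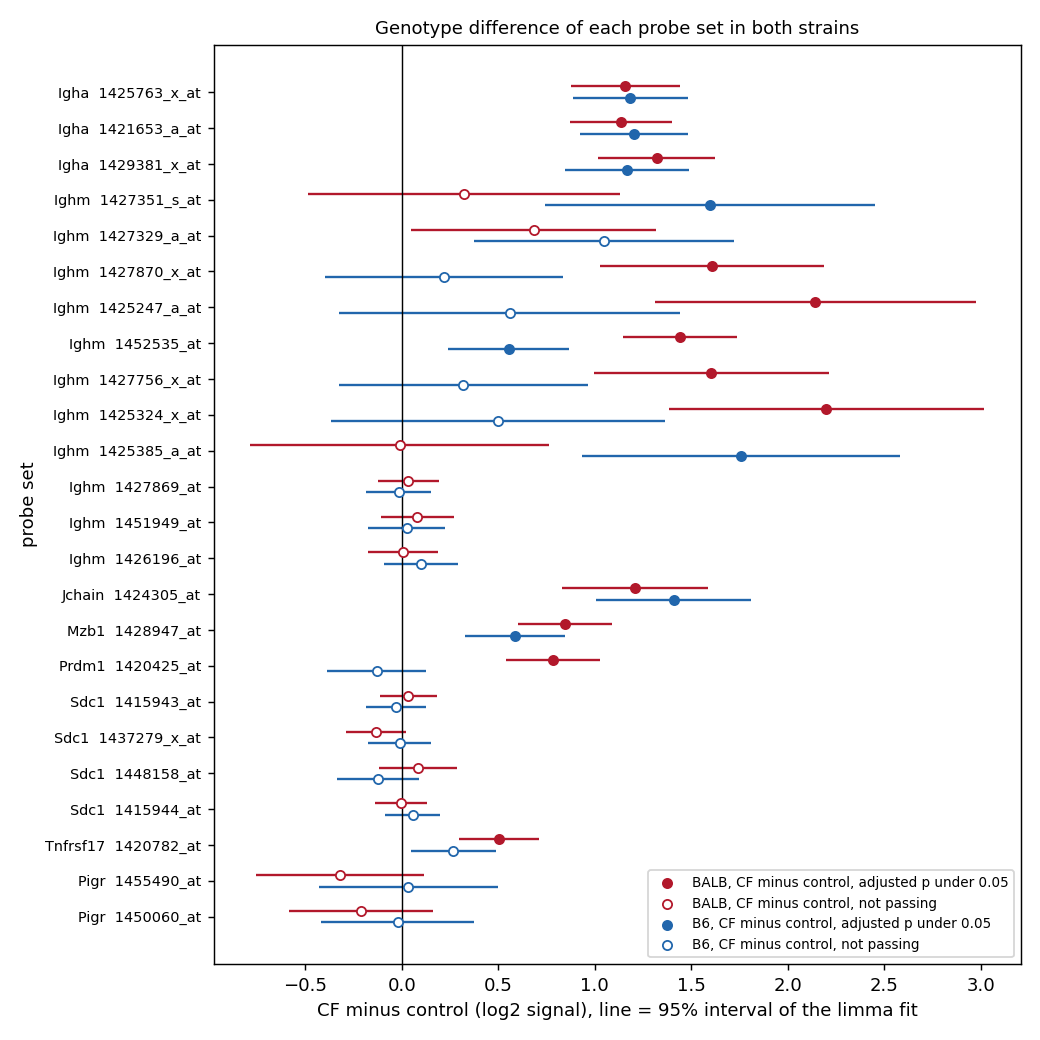
CF minus control (horizontal axis, log2 signal) with the 95% interval of the limma fit for each of the 24 probe sets, BALB above B6; filled points had an adjusted p under 0.05. Igha, Jchain and Mzb1 passed in both strains, Prdm1 and Tnfrsf17 in BALB, and Sdc1 and Pigr in neither.

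Set between strains, 7 of the 24 probe sets were higher in BALB than in B6 controls and 0 lower, where 15.6% of all probe sets passed. Beside Igha and Jchain they were 1452535_at of Ighm (0.65, limma adjusted p = 0.00232), Tnfrsf17 (0.33, adjusted p = 0.025) and Mzb1 (0.35, adjusted p = 0.0449). The Tnfrsf17 call was lost without BALB control female 3 or male 3 or B6 control female 2, female 3 or male 3 (adjusted p = 0.0508 to 0.0662). The Mzb1 call was lost without any 1 of 14 arrays (adjusted p = 0.0501 to 0.118), and it held without each B6 CF array, BALB CF female 1, BALB control female 2 or male 1, or B6 control female 3. Between CF lungs, 13 probe sets were higher in BALB and 1 lower, where 18.2% of all passed. Prdm1 differed there by 0.81 (SE 0.12, adjusted p = 4.57e-05) and in controls by -0.10 (adjusted p = 0.641). Mzb1 differed in CF lungs by 0.61 and Tnfrsf17 by 0.57 (adjusted p = 0.0011 and 4.34e-04). The weakest of the 13, 1427869_at of Ighm (0.24, adjusted p = 0.0404), was lost without any 1 of the 10 CF arrays other than BALB CF female 3 (adjusted p = 0.0529 to 0.154). The 1 lower set was 1425385_a_at of Ighm (-2.23, SE 0.39, adjusted p = 2.68e-04).

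Between the sexes, 5 probe sets were higher in female than in male controls and 0 lower, where 2.43% of all probe sets passed: the 3 of Igha (0.77 to 0.83), Jchain (0.76, limma adjusted p = 0.0284) and Prdm1 (0.46, adjusted p = 0.0383). The Jchain call was lost without BALB control female 1 or male 1, or B6 control male 2 or male 3 (adjusted p = 0.0523 to 0.0942) and under a trended robust prior (adjusted p = 0.064), and the Prdm1 call without any 1 control array except B6 control female 1 (adjusted p = 0.0552 to 0.125). Pigr differed by 0.60 and 0.51 without passing (adjusted p = 0.139 and 0.142), and both passed without B6 CF female 3 (adjusted p = 0.0244 and 0.0296), an array outside the comparison that adds to its error. A sex difference of the CF effect was found by limma for 0 of the 24 in BALB (6 at an unadjusted p under 0.05), where 0.0178% of all passed, and for 0 of the 24 in B6 (2 at an unadjusted p under 0.05), where 1.75% did. In BALB the Igha effect was 0.83 smaller in females than in males (SE 0.27, adjusted p = 0.335).

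The other immunoglobulin genes were read on 7 of 30 listed symbols, each gene by its brightest probe set. In BALB CF lungs 4 were higher and 0 lower, where 2.87% of all genes passed as higher and 2.66% as lower. They were the light chain genes Igkv8-30 (1.29, limma adjusted p = 9.58e-05), Iglv1 (1.25, adjusted p = 0.00131) and Igk (1.39, adjusted p = 0.0286) and the heavy chain variable gene Ighv14-2 (1.42, adjusted p = 0.0049). In B6 CF lungs 3 were higher and 0 lower, where 3.92% of all genes passed as higher and 1.5% as lower. They were Igkv8-30 (1.21, adjusted p = 2.53e-04), Iglv1 (1.26, adjusted p = 0.00206) and Ighg3, an IgG heavy chain (0.95, adjusted p = 0.0259). The list medians were 1.25 in BALB and 0.89 in B6, beside -0.01 and 0.01 over all genes.

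Genes of the secretory programme of plasma cells fell in part in B6. In BALB 2 of 35 measured genes rose and 1 fell, where 2.87% and 2.66% of all genes did. The risers were Irf4, a transcription factor of plasma cell differentiation (0.80, limma adjusted p = 8.94e-05), and Eaf2 (0.40, adjusted p = 0.00947). Ern1, the stress sensor that splices Xbp1, fell by 0.22 (adjusted p = 0.0387). In B6 1 rose and 8 fell, where 3.92% of all genes rose and 1.5% fell. The falls included the chaperones Hspa5 (-0.54, adjusted p = 0.00698) and Pdia6 (-0.50, adjusted p = 0.00548), Pdia4 (-0.33, adjusted p = 0.0103) and the plasma cell factor Xbp1 (-0.33, adjusted p = 0.00794). The mean level of the 35 genes in B6 was 7.51 to 7.57 in CF females, against 7.44 to 7.60 in control females, and 7.51 to 7.57 in CF males, against 7.73 to 7.82 in control males. The genotypes overlapped in females and not in males, and the CF effect was higher in females than in males for 6 of the 35 genes and lower for 0, where 0.715% of all genes were higher. Other lung cells also make the chaperones of this list. The list medians were 0.02 in BALB and -0.07 in B6. The strain difference of the CF effect passed for 3 of the 35 genes as higher in BALB and for 0 as lower, where 2.54% of all probe sets passed.

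B cell markers rose beside the antibody genes in BALB and, for a smaller count of them, in B6. A strain difference of the CF effect was found by limma for 0 of the 24 measured (5 at an unadjusted p under 0.05), where 2.54% of all probe sets passed. In BALB 17 of 24 rose and 0 fell, where 2.87% of all genes rose, with the co-activator Pou2af1 at 1.22 (limma adjusted p = 0.00173), H2-Ob at 1.16 (adjusted p = 0.00482), Cd72 at 0.76 (adjusted p = 8.19e-04) and Cd22 at 0.66 (adjusted p = 0.00484). In B6 6 of 24 rose and 0 fell, where 3.92% of all genes rose, with Pou2af1 at 0.94 (adjusted p = 0.0189), Cd37 at 0.74 (adjusted p = 0.0101), Ly86 at 0.56 (adjusted p = 0.00595) and the kinase Btk at 0.36 (adjusted p = 0.0346). The mean level of the 24 markers ran from 5.39 to 6.01 on BALB CF arrays, against 4.65 to 5.52 on BALB control arrays, and within each sex the BALB genotypes did not overlap. In B6 females it was 5.06, 5.83 and 5.33 in CF, against 5.31, 5.79 and 5.69 in controls, and in B6 males 5.88 and 5.51 in CF, against 4.96, 4.72 and 4.92 in controls. The B6 females overlapped and the males did not, and the CF effect in B6 was lower in females than in males for 6 of the 24 markers and higher for 0 (median difference -1.0), where 1.34% of all genes were lower. In female controls 11 of the 24 were higher than in male controls and 0 lower, where 2.51% of all genes were higher. The part of these cells in the Igha and Jchain differences was not tested.

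Genes of B cell survival, class switching and homing changed in part. In BALB 8 of 28 rose and 1 fell, where 2.87% and 2.66% of all genes did. Among the risers were the chemokine receptor Ccr6 (0.81, limma adjusted p = 3.04e-04), the BAFF and APRIL receptor Tnfrsf13b (0.82, adjusted p = 0.0028) and the gut-homing integrin chains Itga4 (0.74, adjusted p = 0.00154) and Itgb7 (0.49, adjusted p = 0.00159). The intestinal chemokine Ccl25 fell there by 0.88 (adjusted p = 0.00486), the only fall of the list. In B6 4 rose and 0 fell, where 3.92% and 1.5% of all genes did: Itgb7 (0.70, adjusted p = 8.95e-05), Itga4 (0.66, adjusted p = 0.00551), the B cell chemokine Cxcl13 (1.45, adjusted p = 0.00812) and Il6ra (0.29, adjusted p = 0.0486). Of the markers of follicles and lymph node vessels, 3 of 11 rose in BALB (Ltb 0.95, Fcer2a 0.89 and Cr2 0.58) and 2 in B6 (Cxcl13 and Ltb, 0.65), and 0 fell in either. Fcer2a and Cr2 are also among the B cell markers, and Cxcl13 is also in the homing list. These risers were therefore counted before.

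For the regulators of Pigr and of epithelial antibody transport, 2 of 20 rose and 1 fell in BALB, and 1 rose in B6. Against 2.87% and 2.66% of all genes in BALB and 3.92% and 1.5% in B6, counts of 1 or 2 in lists this short lie near the background, and nothing is read from them, nor from those of the airway, gland and thymocyte markers. The IL-17 receptor Il17ra, whose ligand is known to raise Pigr, was higher in CF in BALB (0.39, limma adjusted p = 0.0147) and was the 1 riser in B6 (0.35, adjusted p = 0.0371). Fcmr, the IgM receptor that B cells also carry, rose by 1.07 in BALB (adjusted p = 0.0123), and the kinase Yes1 fell by 0.36 (adjusted p = 0.0195). Airway and alveolar epithelium markers, on whose cells Pigr is made, fell in 2 of 21 in BALB (Krt7, -0.30, and Foxj1 of ciliated cells, -0.38), and in B6 limma called 0 of 21 (1 at an unadjusted p under 0.05). Salivary and submucosal gland markers changed in 0 of 10 in BALB (0 at an unadjusted p under 0.05) and 1 in B6 (Azgp1, 0.51).

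Of other immune cells, T cell markers rose in 6 of 17 in BALB and 13 of 17 in B6, macrophage and dendritic cell markers in 1 and 6 of 15 with 0 and 1 falling, and cell cycle genes in 3 and 16 of 23, where 2.87% of all genes rose in BALB and 3.92% in B6. In BALB the leading T cell gene was Il7r (0.69, limma adjusted p = 2.95e-04), the macrophage and dendritic cell gene was Xcr1 (0.41) and the leading cell cycle gene was Ccna2 (0.34). In B6 the genes of lowest p were Il7r (0.83), Tk1 (0.77) and Cd209a (-1.22), which was the 1 macrophage and dendritic cell gene that fell. The strain difference of the CF effect passed for 1 of 17 T cell markers and 10 of 23 cell cycle genes, all lower in BALB. It passed for 1 of 15 macrophage and dendritic cell markers, higher in BALB, where 2.54% of all probe sets passed. Thymocyte markers changed in 0 of 8 in BALB (0 at an unadjusted p under 0.05) and 1 in B6 (Themis, 0.51).

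Markers of stray tissue moved with genotype in BALB. Of 23 intestinal markers 11 fell in BALB CF lungs and 0 rose, where 2.66% of all genes fell, with Zg16 at -2.86 (limma adjusted p = 0.00117), Fabp2 at -2.84 (adjusted p = 0.00206), Muc2 at -2.35 (adjusted p = 0.00451) and Apoa1 at -1.63 (adjusted p = 0.00732), and the median was -1.04. In B6 limma called 0 of 23 (0 at an unadjusted p under 0.05). The strain difference of the effect passed by limma for 1 of the 23, lower in BALB (9 at an unadjusted p under 0.05). Every BALB control array had an intestinal level of 5.09 or more, and every BALB CF array but female 1 had 4.71 or less. Among controls, every B6 array but female 1 had 4.68 or less. A covariate so close to genotype and strain cannot separate stray tissue from either, so nothing is concluded from the calls it kept or lost. With the intestinal marker level of each array as a covariate, the BALB CF effect was 1.43 to 1.68 for Igha and 1.47 for Jchain, both passing, while Mzb1 (0.73, adjusted p = 0.0564), Prdm1 (0.48, adjusted p = 0.133) and Tnfrsf17 (0.60, adjusted p = 0.0666) no longer passed. The Ighm sets 1425247_a_at, 1425324_x_at, 1427756_x_at and 1427870_x_at no longer passed either (adjusted p = 0.0806 to 0.116), at effects of 2.17, 2.16, 1.72 and 1.60 that were close to those without the covariate. BALB CF and B6 CF arrays had intestinal levels of 4.71 or less except BALB CF female 1, and without that array Igha was 1.60 higher in BALB CF than in B6 CF lungs and passed. Between the controls, 15 of 23 intestinal markers were higher in BALB and 0 lower, where 8.64% of all genes were higher. With the covariate the strain difference of Igha was 1.29 to 1.39 and that of Jchain 1.60, both passing, and the other 3 calls were lost, those of 1452535_at of Ighm (0.52, adjusted p = 0.0923), Mzb1 (0.46, adjusted p = 0.0686) and Tnfrsf17 (0.24, adjusted p = 0.325). Within B6 controls, female 1 had the highest intestinal level (6.20) and the highest Igha (10.001). Squamous markers rose in 3 of 15 in BALB CF lungs (Krt4 3.49, Krt13 3.09 and Krtdap 2.90), where 2.87% of all genes rose, and the females carried them. With the squamous level as a covariate, the BALB CF effect was 1.17 to 1.33 for Igha and 1.13 for Jchain, both passing. The part of stray tissue in these differences was not tested.

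**Figure D3:**
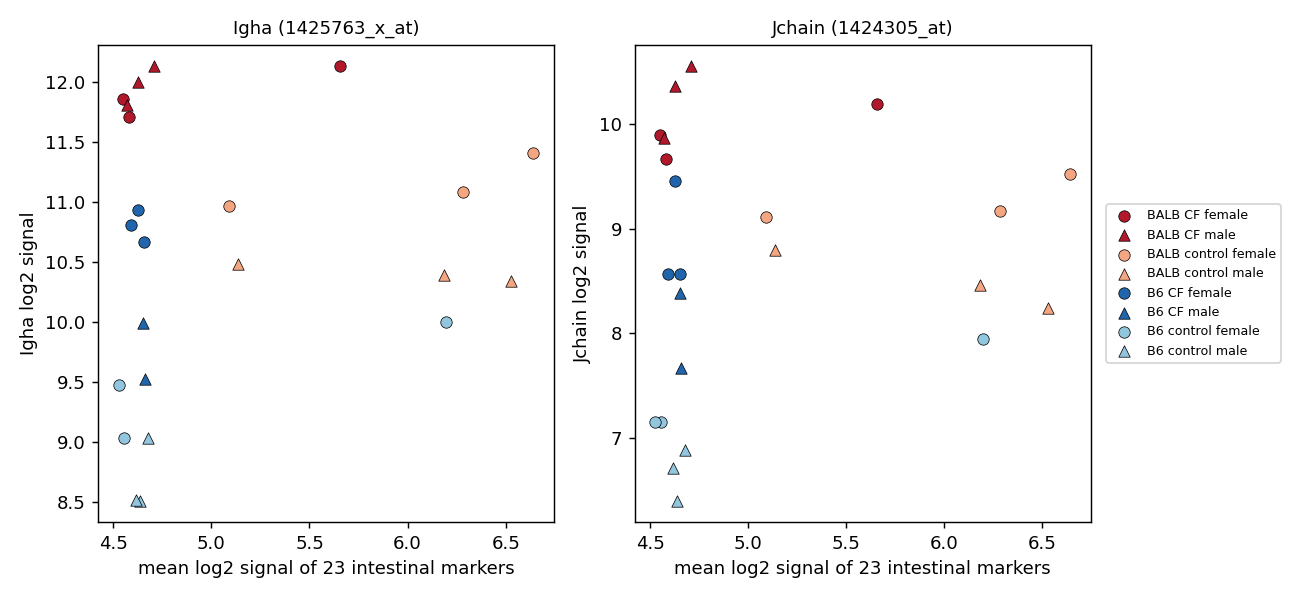
Log2 signal of Igha (left) and Jchain (right) on the vertical axes against the mean log2 signal of 23 intestinal epithelium markers on the horizontal axes, 1 point per array, with colour for strain and genotype and circles for females. The BALB CF arrays were highest in both genes with intestinal levels of 4.55 to 4.71 on 5 of 6, and BALB control arrays lay at 5.09 to 6.64.

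The genes whose deviations from group means were most like those of a member over the 23 arrays were listed for Igha, Jchain and Pigr, as a description. For Igha they were Anapc15 (r = 0.80), Slc25a29 (0.79), Tmem106c (0.75), Myo15b (0.75) and Cxcl1 (0.74). For Jchain they were Igkv8-30 (0.85), Igk (0.82), Ptprj (0.78) and Aamp (0.76), and the fifth (0.75) was, like the leading pair, a kappa light chain gene. For Pigr they were Clmp (0.87), Cdhr4 (0.82), Noxo1 (0.80), Cfap53 (0.80) and Erich2 (0.80). The points share the RNA and the array of each lung, and B6 CF female 3 stood apart in Pigr.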

How the data were processed

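Total RNA of the whole right lung was labelled with biotin, per the labels, and measured on 23 arrays. The deposited value table of the series holds 45101 probe sets by 23 arrays, and its values are taken as log2 signals. That scale was inferred from the values (1.79 to 13.82, alike on every array). How the authors summarised and normalized the probes is not given in the sources used here. Control probe sets (64) were left out. Symbols came from the platform annotation, and the 932 probe sets with several symbols (4 of them with a member's) and the 9160 without any were not used for naming.

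A mean per group (8, with the sexes apart) was estimated by limma 3.58.1 in R 4.3.3, with 15 residual degrees of freedom and a prior worth 5.81. Benjamini-Hochberg adjustment ran over all 45037 probe sets for each contrast. A strain's CF effect averages its female and male effects. The number of arrays limits the precision. Lists were read with 1 probe set per gene, the brightest. Every probe set of a member was described, up to 4 genes of lowest p were named per list (Ccl25, the only fall of its list, was added after its value was seen), and the likeness genes had a mean at or above the median probe set, 4.59. The members and lists were chosen with earlier results of these data known. The fit was tested on simulated data. Alternatives were quantile and median scaling, a filter on dim probe sets, another prior, array weights, other arrays in the fit, a replicate block, marker covariates and leaving out arrays.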

Additional observations from a re-analysis of the deposited data

Results flagged for a closer look

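In 96 sets of values, each 1 probe set in 1 group of strain and genotype, 14 held an array far from the rest of its group, where chance gives about 5% of such sets. The sets are not independent, so the count repeats some arrays. Deviations from group means correlated at r = 0.95 to 0.98 among the 4 Ighm sets named next and at 0.95 between both Pigr sets. B6 CF female 2 was far above the other 4 B6 CF arrays on 4 Ighm probe sets, at 7.07 on 1425247_a_at (others 4.0 to 4.55), 6.39 on 1425324_x_at (3.59 to 3.83), 5.91 on 1427756_x_at (3.93 to 4.25) and 7.26 on 1427870_x_at (5.49 to 5.77). BALB control male 3, the array with the highest thymocyte markers, was above the other BALB controls on 3 of the same probe sets, at 5.34 on 1425247_a_at (others 4.71 to 4.91), 4.98 on 1425324_x_at (4.26 to 4.53) and 6.50 on 1427870_x_at (5.85 to 6.01). Single low arrays were B6 control male 2 at 3.80 on 1427756_x_at of Ighm (others 4.09 to 4.20), B6 control female 2 at 2.95 on 1426196_at of Ighm (3.16 to 3.27) and BALB CF female 2 at 7.02 on Mzb1 (7.13 to 7.17). High arrays were B6 CF female 3 for Pigr, at 9.01 on 1455490_at (others 7.43 to 7.83) and 8.53 on 1450060_at (7.12 to 7.52), B6 control female 2 at 9.62 on 1415943_at of Sdc1 (9.33 to 9.42) and B6 control female 1 at 3.32 on Tnfrsf17 (3.07 to 3.16).

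The CF effect differed between strains by a test of the difference itself for 2 probe sets. For Prdm1 the BALB effect exceeded the B6 effect by 0.91 (SE 0.17, limma adjusted p = 0.00576). For 1452535_at of Ighm it exceeded it by 0.89 (SE 0.21, limma adjusted p = 0.0244).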

How the results depend on the processing

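The CF effects of Igha and Jchain in both strains kept their direction and passed in each of the 10 alternative fits and without any 1 array. Nothing is concluded from the fit with the intestinal covariate, which was among them. Counts of probe sets past the threshold moved as follows. In BALB (2217 for the CF effect) array weights gave 3824, the arrays of the compared groups alone 1406, the intestinal covariate 87 and the squamous covariate 1144, and member probe sets fell to 5 with the intestinal covariate. For the strain difference (1142) they were 2043, 422 with the intestinal and 497 with the squamous covariate, with 4 members under array weights, 1 with the squamous covariate and 1 without 4 arrays high in stray tissue markers. That setting and the squamous covariate were chosen after seeing the data. BALB minus B6 controls gave 4095 (7016) and 4 members with the intestinal covariate, and 12 members with only the control arrays. Female minus male controls (1094) gave 3666 with array weights and 1780 without the 4 arrays, with 8 members under weights and 9 with only the control arrays. The sex difference of the CF effect in BALB (8) gave 13 with a trended robust prior, 132 with weights, 24 with only BALB arrays, 0 with the squamous covariate and 116 without the 4 arrays, and in B6 (788) weights gave 1488. Leaving out 1 array gave 1368 to 2851 in BALB and 852 to 2329 in B6 (4 to 9 members), 591 to 1568 for the strain difference (2 to 7 members), 477 to 1772 for the sexes (3 to 7 members), 0 to 100 for the sex difference in BALB, and 245 to 1183 in B6 (0 to 1 members). Some Ighm probe sets had a sign opposite to that of the brightest, but in no case did the brightest and the opposite set both pass. The B6 effect was 1.60 by the brightest and -0.0161 by 1427869_at (limma adjusted p = 0.956). The strain difference was -1.28 by the brightest (adjusted p = 0.273) and 0.89 by 1452535_at. BALB minus B6 CF was -1.03 by the brightest (adjusted p = 0.0918). It was 1.76, 2.24, 1.54, 1.85, 2.47 and 0.24 by 1427870_x_at, 1425247_a_at, 1452535_at, 1427756_x_at, 1425324_x_at and 1427869_at, which passed. By 1425385_a_at it was -2.23 and passed as well (limma adjusted p = 2.68e-04), so Ighm sets passed in opposite directions there. The cause was not tested. Replicate numbers do not pair the arrays (r of same-numbered arrays -0.25 to 0.57, median 0.00065), and with them as a block no count moved by over 1.5 times, while Mzb1 between controls (0.35, adjusted p = 0.0585) and 1452535_at in B6 (0.54, adjusted p = 0.0554) no longer passed. Few arrays per group and dim probe sets such as Tnfrsf17 limit what could be seen.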
